A study of Mus musculus with 15 samples.

Results

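The 7 genes followed here encode channel proteins of the cardiac action potential and of cell-to-cell conduction, and were measured in isolated mouse cardiomyocytes after proton irradiation. They were Scn4a and Scn4b (voltage-gated sodium channel), Hcn2 and Hcn4 (pacemaker channel) and Gja1, Gja5 and Gjc1 (connexins). Genes were found by symbol among the probe sets that the array's annotation pairs with a single symbol, and the probe set with the highest mean over the 15 arrays stood for a gene. In this way 6 of the 7 genes were found, each with 1 probe set, of 19937 genes found in all. No single-symbol probe set was matched to Scn4a, which was not analysed here. The other 6 all passed the filter on low signal, a mean log2 signal above 5.00, which left 12102 genes for the tests.

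All samples came from the left ventricle of male C57Bl/6NT mice aged 8 to 9 months, from which cardiomyocytes were freed with collagenase. Whole animals had received 90 cGy of 1 GeV protons, and cells were taken 1 day (2 arrays), 3 days (3 arrays), 5 days (3 arrays), 12 days (2 arrays) or 26 days (2 arrays) later, or the animals had been sham-treated (2 arrays of day 1 and 1 array of day 3, pooled here as 1 sham group). Days are those of the sample titles, since the series text gives higher numbers for the last 3 time points. The labels state that inflammatory and endothelial cells may remain in the suspension and do not give the animals behind each array, so p-values measure only the spread between these samples, which may be technical. Replicates 1 and 2 of proton day 5 differed far less than any other pair of arrays (SD of their log2 differences 0.0768 over the genes tested, against 0.222 for the next closest of the 105 pairs) and were averaged and counted as 1 sample, leaving 14 samples. The sham group holds no array of days 5, 12 or 26, so time after treatment and irradiation cannot be told apart there.

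A voltage-gated sodium channel carries the upstroke of the ventricular action potential, and its auxiliary beta subunits, among them the product of Scn4b, alter its gating and its amount at the cell surface. The pacemaker channels encoded by Hcn2 and Hcn4 open on hyperpolarization and carry an inward current that is prominent in the sinoatrial node and sparse in working ventricle. Connexins assemble into gap junctions: the product of Gja1 is the main connexin of working ventricular muscle, that of Gja5 is found in atria, the fast ventricular conduction system and arterial endothelium, and that of Gjc1 is found in nodal and conduction tissue.

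Promoter sequence is shown for the 3 genes whose samples stood wholly apart from sham on at least 1 day and for which a RefSeq entry was matched (build GRCm38.p6). Each run is the 250 bases before the gene's start, 5′ to 3′ on the plus strand, which is the gene's own strand. The windows are chr9:45138374-45138623 for Scn4b, chr10:79716384-79716633 for Hcn2 and chr10:56377050-56377299 for Gja1. Capitals mark matches on either strand to the T-box half-site AGGTGT, the NKX core AAGTG, the GATA site AGATAA, the AP-1 site TGAGTCA, the TATA box TATAAA or the GC box GGGCGG.
Scn4b: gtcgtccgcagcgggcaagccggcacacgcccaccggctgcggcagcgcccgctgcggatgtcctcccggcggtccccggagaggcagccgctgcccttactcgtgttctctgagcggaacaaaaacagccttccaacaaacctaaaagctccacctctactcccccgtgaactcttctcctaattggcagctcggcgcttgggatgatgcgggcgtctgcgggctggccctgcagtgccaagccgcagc
Hcn2: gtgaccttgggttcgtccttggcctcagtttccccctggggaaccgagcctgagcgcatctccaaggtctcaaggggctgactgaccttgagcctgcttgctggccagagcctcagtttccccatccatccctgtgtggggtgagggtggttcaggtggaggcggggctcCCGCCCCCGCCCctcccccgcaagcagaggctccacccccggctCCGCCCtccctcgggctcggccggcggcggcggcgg
Gja1: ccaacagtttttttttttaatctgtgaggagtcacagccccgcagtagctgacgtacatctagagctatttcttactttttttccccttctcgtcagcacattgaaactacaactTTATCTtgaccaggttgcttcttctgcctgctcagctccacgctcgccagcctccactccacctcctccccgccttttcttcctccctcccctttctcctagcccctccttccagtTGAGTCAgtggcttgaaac

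The Scn4b window held none of these motifs and no E-box (CANNTG). The Hcn2 window held 3 GC boxes, all on the minus strand, and an E-box 98 to 93 bases before the start. GC boxes were present in 32.7% and E-boxes in 66.2% of the 32851 mouse windows of the same table. In the Gja1 window an AP-1 site lay 19 to 13 bases before the start and a GATA site on the minus strand lay 135 to 130 bases before it. These letters occur in 4.46% and 9.99% of all windows, and an E-box, capitalised only where it shares bases, overlaps the AP-1 site. GC content was 66.0% for Scn4b, 70.4% for Hcn2 and 50.0% for Gja1, beside a median of 52.4% over all windows. Of the other 3 genes, the Hcn4 window held a T-box half-site (11.8% of windows) and 2 GC boxes, all on the minus strand, the Gja5 window held an NKX core (40.7% of windows) and a GC box, and no window was matched to Gjc1.

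None of the 6 channel genes passed the threshold of 0.05 on the adjusted p (limma moderated tests with Benjamini-Hochberg adjustment over all 12102 genes) in any comparison. Few genes of the whole table did. Against sham the share of all genes called was 0% for proton day 1, 0.00826% for day 3, 0.0496% for day 5, 0% for day 12 and 0.0413% for day 26. It was 0.0248% for the mean of the 5 proton days against sham and 0.0248% for the F-test of any proton day against sham. It was 0.00826% for late proton days (12 and 26) minus early proton days (1 and 3), and 0% for the F-test of any difference among the 5 proton days. At an unadjusted p under 0.05, 2 of the 6 genes (Scn4b and Hcn2) were past the line at day 26, where 14.3% of all genes were, and 1 of 6 (Scn4b) in late minus early, where 13.2% were. At the same unadjusted line 0 of the 6 were past it in the other 7 comparisons, where the share of all genes was 5.5% for proton day 1, 8.86% for day 3, 8.99% for day 5, 8.01% for day 12, 12% for the mean of the 5 days, 9.54% for the F-test against sham and 8.43% for the F-test among proton days. In none of the 6 genes did all samples of day 3, of day 5 or of the 5 proton days together stand apart from sham, as 12.4%, 32.6% and 1.74% of all genes did.

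**Figure D1:**
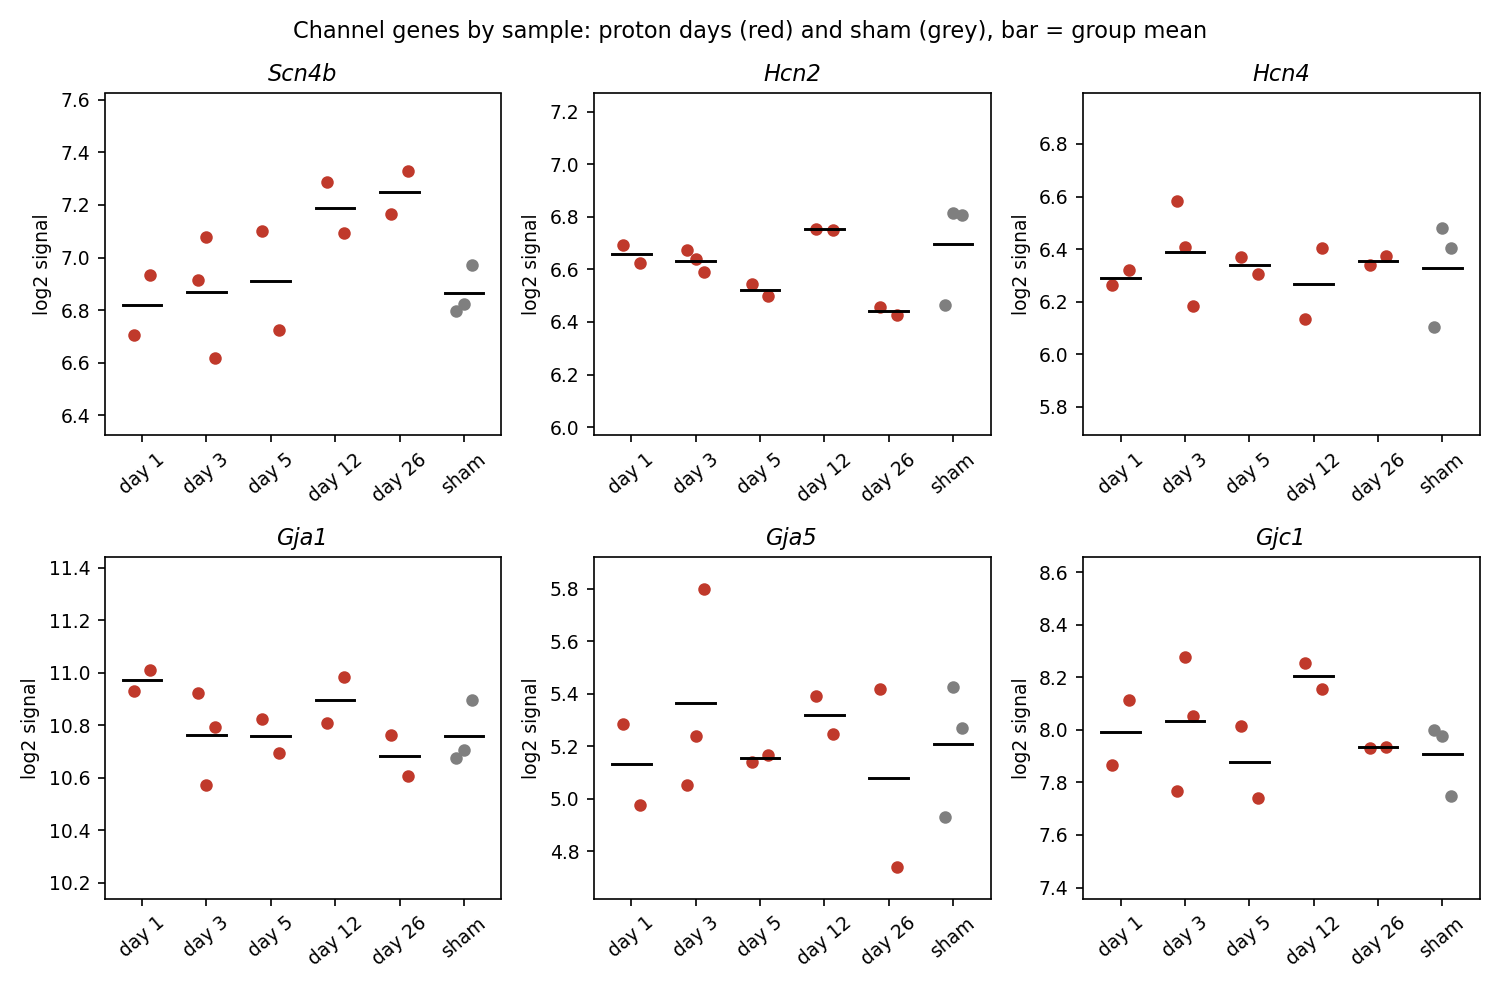
Log2 signal (vertical axis, each panel spanning the same number of log2 units) of the 6 channel genes in each of the 14 samples, by day after protons (red) with sham (grey) on the right; the bar is the group mean. The 4 Scn4b samples of proton days 12 and 26 lie between 7.09 and 7.33, above the 3 sham samples at 6.80 to 6.97, while in the other panels most proton samples lie within or near the sham range.

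Scn4b was highest at proton days 12 and 26. Its log2 signal was 6.71 and 6.93 on proton day 1, 6.91, 7.08 and 6.62 on day 3, 7.10 and 6.72 on day 5, 7.29 and 7.09 on day 12 and 7.16 and 7.33 on day 26, against 6.80, 6.82 and 6.97 in sham. Every sample of days 12 and 26 therefore lay above every sham sample. Of all genes, 21.1% at day 12 and 38.8% at day 26 did not overlap with sham in one direction or the other. The samples of days 1, 3 and 5 fell on both sides of the sham range. The day 26 mean was 7.25 ± 0.117 (SD, n = 2) and the sham mean 6.86 ± 0.0948 (SD, n = 3). The fitted log2 difference between them was 0.38 ± 0.16 (SE; 95% interval 0.05 to 0.72), which is 1.31-fold (limma adjusted p = 0.296). At day 12 the mean was 7.19 ± 0.136 (SD, n = 2), and the log2 difference from sham was 0.33 ± 0.16 (SE; limma adjusted p = 0.616).

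The 4 late samples of Scn4b also lay above all 5 early ones, and 4.07% of all genes had late and early samples that did not overlap in one direction or the other. The late mean was 7.22 ± 0.109 (SD, n = 4) and the early mean 6.85 ± 0.186 (SD, n = 5). The fitted late minus early difference was 0.37 ± 0.12 (SE; 95% interval 0.12 to 0.63; limma adjusted p = 0.229), a 1.30-fold higher signal. It ranked 376 of 12102 genes by p. Averaged over the 5 proton days, Scn4b stood 0.14 ± 0.11 (SE) above sham on the log2 scale (adjusted p = 0.584) and 0.24 above it with the marker score described next as a covariate, and the F-tests gave adjusted p = 0.561 against sham and 0.624 among proton days.

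Markers of other cells differed between these samples, and their values are given here for the reading of Scn4b. A score was taken as the mean log2 deviation of the endothelial, fibroblast and macrophage markers from each gene's own mean. It was 0.13 and 0.51 in the samples of proton day 1, -0.61, -0.73 and 0.51 at day 3, -0.07 and 0.10 at day 5, -0.28 and 0.72 at day 12 and 0.47 and 0.06 at day 26, against -0.25, -0.05 and -0.45 in sham. Within each of days 3, 5, 12 and 26 the sample with the highest score had the lowest Scn4b signal, whereas at day 1 the order was the opposite, and in sham the sample with the highest score had neither the lowest nor the highest Scn4b signal. With the score as a covariate in the fit, the late minus early difference of Scn4b was 0.43 ± 0.094 (SE; limma adjusted p = 0.0319). In that fit 2.95% of all genes passed the threshold and Scn4b alone did among the 6 genes.

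**Figure D2:**
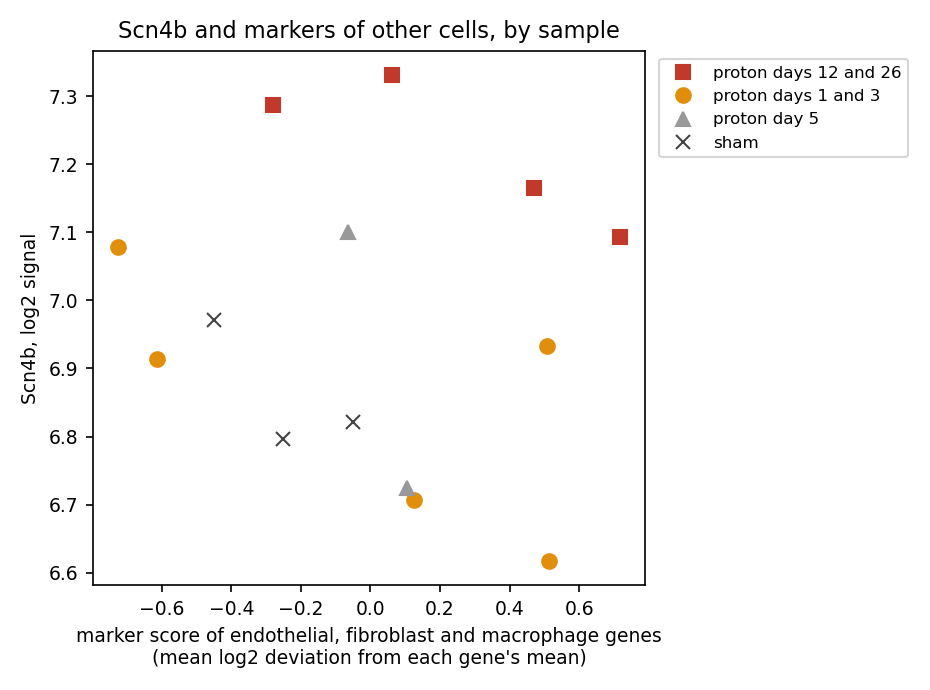
Scn4b log2 signal (vertical axis) against the score of endothelial, fibroblast and macrophage markers (horizontal axis, mean log2 deviation), 1 point per sample. The 4 samples of proton days 12 and 26 (red squares) lie at 7.09 or above over scores from -0.28 to 0.72, and the 5 samples of days 1 and 3 (orange circles) lie at 7.08 or below.

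In these bulk samples, fewer cells of a type and less RNA per cell cannot be told apart. All 12 cardiomyocyte markers (among them Myh6, Tnnt2, Actn2 and Ryr2) were above the filter, and their summed linear signal of 49530 to 52400 covered all 14 samples. Of the 8 conduction-cell markers, 4 were above the filter, and Cacna1d, Shox2, Isl1 and Cpne5 were below it. The summed level of the conduction list was 471.4 to 565.4 at proton day 26 against 373.5 to 425.8 in sham, so these ranges did not overlap. At day 12, where Scn4b also stood wholly above sham, the conduction list was 406.8 to 508.5 and overlapped sham. Other lists stood apart from sham at day 26 as well. Lymphocyte markers summed to 563.4 to 661.6 at day 26 (and 305.4 to 558.1 at day 12) against 203.5 to 255.5 in sham. The lymphocyte sum was also above sham at day 1 (338 to 352.1) and day 5 (437.4 to 515.6), and overlapped it at day 3 (163.1 to 339.7). Erythroid markers summed to 144.1 to 289.8 at day 26 against 390.8 to 1533 in sham. Macrophage markers summed to 3020 to 3084 at day 26 and 2771 to 4431 at day 1, against 1584 to 2542 in sham. On days 3, 5 and 12 the macrophage sum overlapped sham. Smooth muscle and pericyte markers summed to 2274 to 2862 at day 26 against 2207 to 2270 in sham. Their sum was below sham at day 3 (1719 to 1874) and day 5 (1956 to 1967). Atrial and fibroblast markers, given with the connexin genes, were also above sham at day 26. Whether any of these had a part in the Scn4b signal was not tested.

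The pacemaker channel gene Hcn2 was lowest at proton day 26. Its log2 signal was 6.69 and 6.63 on proton day 1, 6.67, 6.64 and 6.59 on day 3, 6.54 and 6.50 on day 5, 6.75 and 6.75 on day 12 and 6.46 and 6.43 on day 26, against 6.47, 6.81 and 6.81 in sham. Both day 26 samples lay below the lowest sham sample by a small margin, on a day when 38.8% of all genes did not overlap with sham. The sham samples themselves spread over nearly the whole range of the gene. The log2 difference at day 26 was -0.25 ± 0.11 (SE; 95% interval -0.50 to -0.0043; limma adjusted p = 0.342). Over the 5 proton days the difference from sham was -0.09 ± 0.082 (adjusted p = 0.634), with -0.21 to -0.036 when 1 array was left out, both ends from the sham arrays of day 1, and late minus early it was -0.05 ± 0.085 (adjusted p = 0.829). The F-tests gave adjusted p = 0.663 against sham and 0.740 among proton days.

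Hcn4, the main pacemaker channel gene of the sinoatrial node, differed from sham by less than its spread on every day. Its signal was 6.26 and 6.32 on proton day 1, 6.58, 6.41 and 6.18 on day 3, 6.37 and 6.31 on day 5, 6.13 and 6.40 on day 12 and 6.34 and 6.37 on day 26, against 6.10, 6.48 and 6.41 in sham. The groups overlapped on every day. The day with the smallest p was day 3, at 0.06 ± 0.13 (SE; limma adjusted p = 0.920). The mean over the 5 proton days differed from sham by 0.0005 ± 0.11, with a 95% interval of -0.23 to 0.23, and late minus early by -0.03 ± 0.11, with an interval of -0.27 to 0.21. The F-tests gave adjusted p = 0.982 against sham and 0.986 among proton days.

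Gja1, the working ventricular connexin gene, was highest at proton day 1. Its log2 signal was 10.93 and 11.01 on proton day 1, 10.92, 10.57 and 10.79 on day 3, 10.82 and 10.69 on day 5, 10.81 and 10.98 on day 12 and 10.76 and 10.60 on day 26, against 10.68, 10.71 and 10.89 in sham. Both day 1 samples lay above all 3 sham samples, and 29.1% of all genes had day 1 and sham samples that did not overlap. The difference at day 1 was 0.21 ± 0.10 (SE; 95% interval -0.02 to 0.44; limma adjusted p = 0.754). Over the 5 proton days it was 0.06 ± 0.075 (adjusted p = 0.770), with 0.0138 to 0.123 when 1 array was left out, both ends from sham arrays, and late minus early it was -0.08 ± 0.078 (adjusted p = 0.685). The F-tests gave adjusted p = 0.662 against sham and 0.713 among proton days.

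Gja1 is also expressed in fibroblasts and endothelium, and both marker lists stood above sham at day 1. The fibroblast list did so at days 5 and 26 as well, and the endothelial list at no other day. The 11 fibroblast markers, of which 10 were above the filter, summed to 3627 to 4410 at proton day 1 against 2413 to 3150 in sham. The 12 endothelial markers, all above the filter, summed to 3338 to 3948 at proton day 1 against 2354 to 3160 in sham. At day 26, where Gja1 lay within or below the sham range, the fibroblast sum was 3550 to 4946, above sham. The endothelial sum was 2958 to 4360 at day 26 and overlapped sham. At day 5 the fibroblast sum was 3748 to 3970, also above sham. The part of these cells in the Gja1 signal was not tested.

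Gja5, the connexin gene of atria, fast conduction fibres and arteries, had the widest spread of the 6 genes. Its within-group SD of 0.300 was larger than that of 87.1% of all genes tested, and it lay closest to the filter, with 12 of 15 arrays above 5.00. Its signal was 5.29 and 4.98 on proton day 1, 5.05, 5.24 and 5.80 on day 3, 5.14 and 5.17 on day 5, 5.39 and 5.25 on day 12 and 5.42 and 4.74 on day 26, against 4.93, 5.43 and 5.27 in sham. Proton and sham samples overlapped on every day. The day 3 difference was 0.15 ± 0.22 (SE; 95% interval -0.33 to 0.64; limma adjusted p = 0.880), and the mean over 5 days was 0.0004 ± 0.18 with an interval of -0.39 to 0.39. Late minus early it was -0.05 ± 0.19 (adjusted p = 0.931), and the F-tests gave adjusted p = 0.925 against sham and 0.948 among proton days.

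Gja5 and the atrial markers did not keep one order over samples. On the log2 scale the atrial markers stood 0.733 above their mean in the sample with the highest Gja5 signal (day 3, 5.80) and 1.23 above it in the day 26 sample at 5.42. They stood at -0.816 in the sham sample at 5.43 and at -0.792 in the day 12 sample at 5.39. In the day 26 sample with the lowest Gja5 signal, 4.74, they stood at 0.133, and in the day 5 sample at 5.17 they stood at 0.695. Of the 8 atrial markers, 7 were above the filter (Sln was below). The 8 summed to 3004 to 5186 at proton day 3, 3121 to 4625 at day 5 and 3004 to 6469 at day 26. All 3 ranges lay above the sham range of 2476 to 2854. At day 1 (2152 to 2743) and day 12 (1829 to 3415) the atrial sum overlapped sham. Arterial endothelial markers, of which 3 of 5 were above the filter (Sox17 and Bmx were below), summed to 183.6 to 320.1 at day 3 against 211.7 to 266 in sham. Their part in the Gja5 signal was not tested.

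Gjc1, the nodal connexin gene, was highest at proton day 12. Its log2 signal was 7.87 and 8.11 on proton day 1, 7.77, 8.28 and 8.05 on day 3, 8.01 and 7.74 on day 5, 8.25 and 8.15 on day 12 and 7.93 and 7.94 on day 26, against 8.00, 7.98 and 7.75 in sham. Both day 12 samples lay above sham, as did Scn4b, which makes 2 of the 6 genes on a day on which 21.1% of all genes did not overlap with sham. The difference at day 12 was 0.29 ± 0.15 (SE; 95% interval -0.03 to 0.62; limma adjusted p = 0.616). By day 26 the samples lay inside the sham range, where 2 of the 6 genes (Scn4b above, Hcn2 below) and 38.8% of all genes did not overlap with sham. Over the 5 proton days the difference was 0.10 ± 0.11 (adjusted p = 0.700) and 0.018 without the sham array of day 3, late minus early it was 0.06 ± 0.11 (adjusted p = 0.846), and the F-tests gave adjusted p = 0.755 against sham and 0.847 among proton days.

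**Figure D3:**
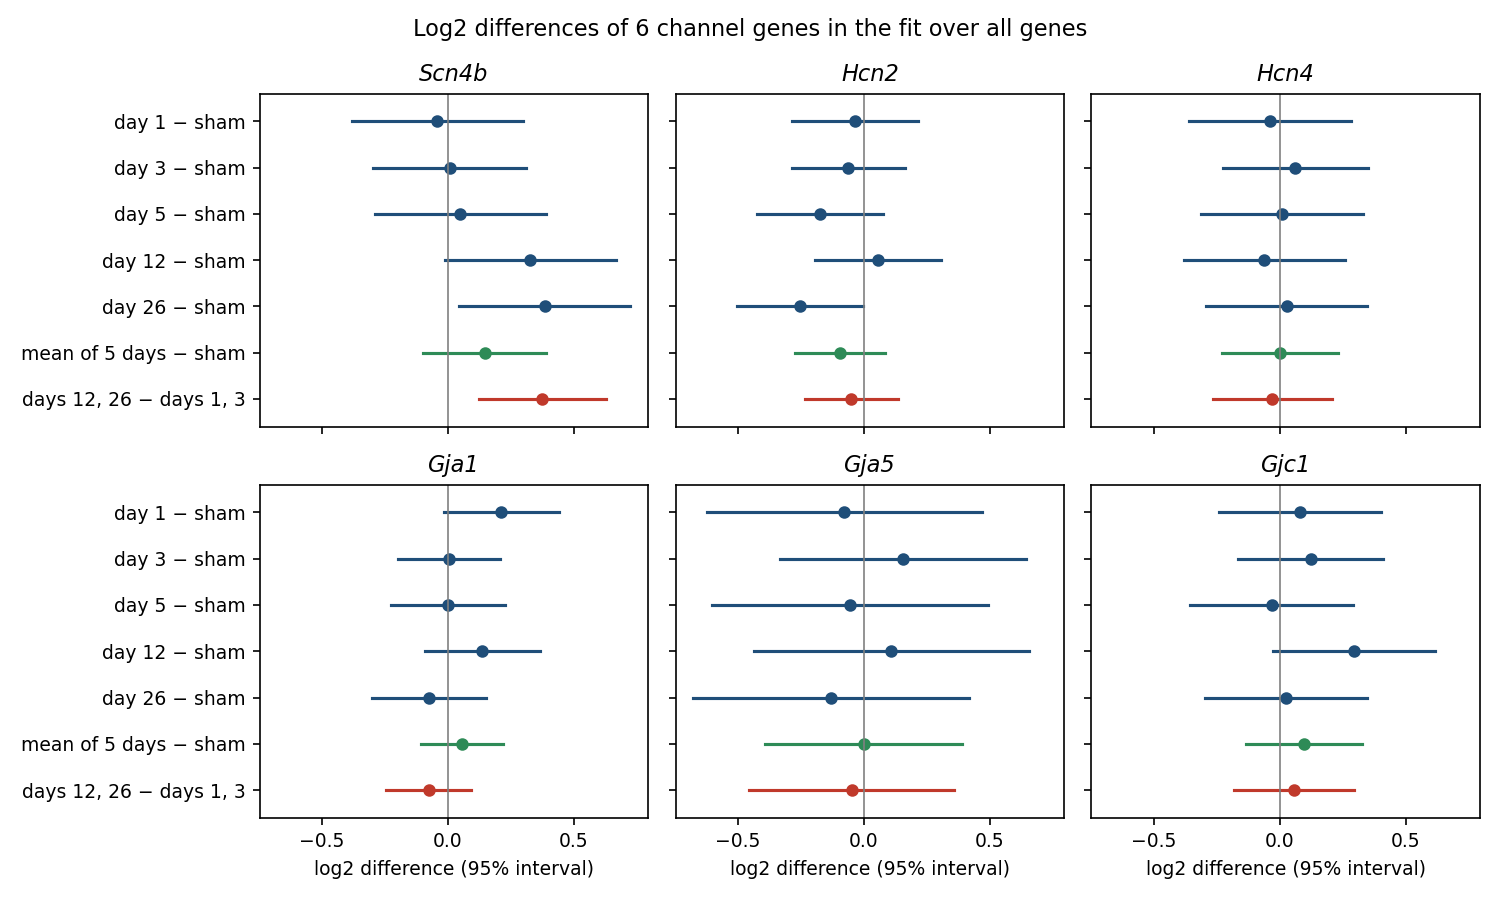
Log2 differences (horizontal axis) with 95% intervals from the limma fit over all genes, for each proton day minus sham (blue), the mean of the 5 proton days minus sham (green) and late minus early proton days (red). The Scn4b interval for late minus early runs from 0.12 to 0.63, the Hcn2 interval at day 26 ends at -0.0043, and the Gja5 intervals are the widest.

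Among the genes that work with these channels, none passed the adjusted threshold in any comparison. Of 13 other sodium channel subunit genes, 2 were above the filter, Scn3b and Scn7a. Scn3b, a beta subunit gene, had a mean log2 signal of 5.07, close to the filter. Its mean over the 5 proton days was 0.42 ± 0.28 (SE; limma adjusted p = 0.528) above sham and 0.11 with the marker score as covariate. Scn7a encodes a sodium-sensing channel homologue (adjusted p = 0.747 in the F-test against sham). Of 12 genes for sodium channel partners, 10 were tested. In late minus early their median was -0.122, with 1 of 10 above 0, beside a median of 0.0262 and 56.8% above 0 for all genes tested. At an unadjusted p under 0.05, 0 of the 10 were higher and 3 were lower, where 6.86% of all genes were higher and 6.38% lower. Ank3, which encodes an ankyrin that anchors sodium channels, had a late minus early difference of -0.28 ± 0.070 (SE; adjusted p = 0.171), and Rangrf, whose product helps the channel reach the membrane, stood at -0.27 ± 0.12 over the 5 proton days (adjusted p = 0.413; -0.14 with the marker score as covariate). None of the 6 other pacemaker channel genes and regulators was above the filter.

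Of 20 other connexin and pannexin genes, 6 were tested, and in late minus early all 6 lay above 0 with a median of 0.253. At an unadjusted p under 0.05, 3 of the 6 were higher and 0 were lower, beside the same 56.8% of all genes above 0, 6.86% higher and 6.38% lower. Several of the 6 had mean log2 signals near the filter: Panx3 5.50, Panx2 5.53, Gja4 5.60 and Gjb5 5.62. Panx3, a pannexin gene, had a late minus early difference of 0.61 ± 0.26 (SE; adjusted p = 0.358). This became 0.40 without replicate 3 of day 3 and 0.77 with the marker score as covariate (adjusted p = 0.0396). Gja3, the lens connexin gene, had -0.13 ± 0.091 over the 5 proton days (adjusted p = 0.546). All 15 genes for intercalated disc proteins were tested, with a late minus early median of -0.0692, 4 of 15 above 0, and 1 higher and 4 lower at an unadjusted p under 0.05. Dsc2, a desmosomal cadherin gene, was -0.37 ± 0.086 in late minus early (adjusted p = 0.152; 0.0425 with the marker score as covariate), and Cxadr, which encodes the coxsackievirus and adenovirus receptor of the disc, was 0.17 ± 0.059 over the 5 proton days (adjusted p = 0.317). Of 14 conduction transcription factor genes 12 were tested, with a late minus early median of 0.0109, 6 of 12 above 0, and 1 higher and 1 lower at an unadjusted p under 0.05. Tbx18, a T-box gene of the sinus node, had 0.41 ± 0.20 over the 5 proton days (adjusted p = 0.427), which became 0.24 without the sham array of day 3 and 0.22 with the marker score as covariate, and Prox1 had an adjusted p of 0.335 in the F-test against sham.

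**Figure D4:**
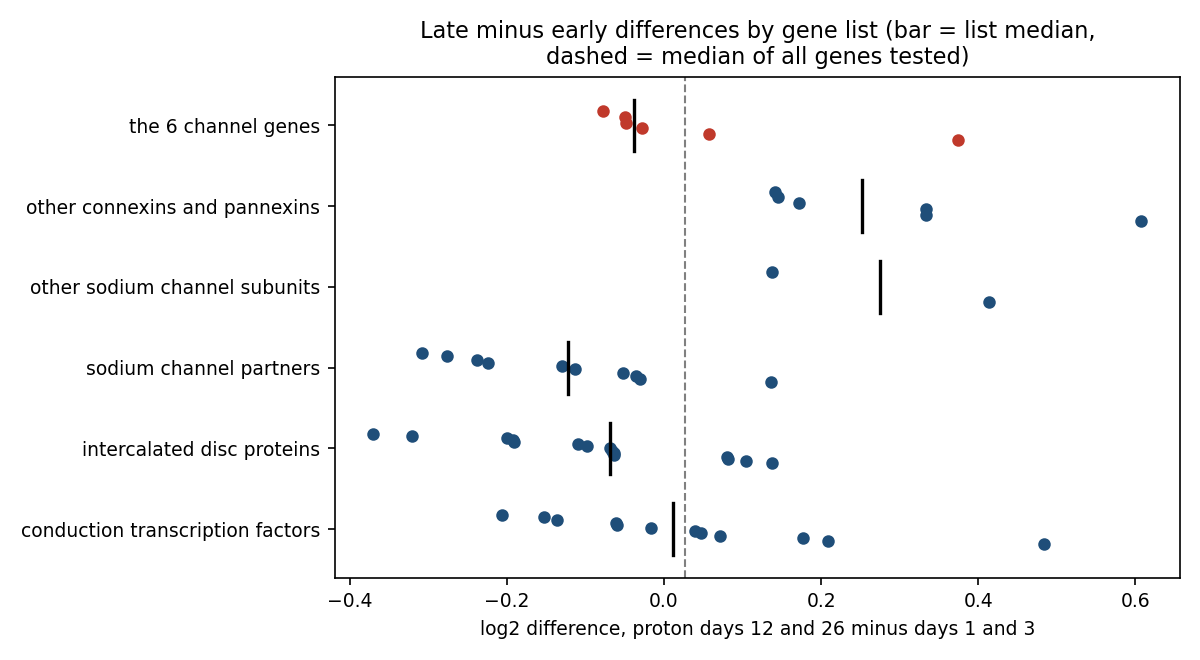
Late (proton days 12 and 26) minus early (proton days 1 and 3) log2 differences (horizontal axis) of the genes above the filter in each list, 1 point per gene, with the list median as a bar and the median of all genes tested, 0.0262, as a dashed line. Scn4b stands apart from the other 5 channel genes at 0.37, and all 6 connexin and pannexin genes lie above 0.

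As a description of likeness, the 3 genes with the highest Pearson correlation of log2 signal with each channel gene were taken over the 14 samples, which share arrays and scaling. For Scn4b they were Pnrc1 (r = 0.831), Cacnb1 (0.822), which encodes a calcium channel beta subunit, and Dupd1 (0.812). For Hcn2 they were Mark4 (0.868), Nupl1 (0.831) and Copg2 (0.824), and for Hcn4 they were Mir455 (0.831), Ghrh (0.822) and Slc22a23 (0.804). Gja1 was most like Magi3 (0.892), Hif1a (0.869) and Nrp1 (0.860). Gja5 was most like Wipi2 (0.836), Tbc1d32 (0.817) and Ahcyl1 (0.817), and Gjc1 most like Zdhhc21 (0.907), Cgnl1 (0.859) and Cdkn2aipnl (0.858).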

How the data were processed

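Deposited log2 signals of 34760 probe sets on 15 arrays were used. The submitters' processing notes name MAS5, and no normalization step is given in the sources used here. Whether MAS5 gave the deposited values is uncertain and could not be checked. The deposited log2 values ran from 0.123 to 12.9, and array medians from 4.90 to 5.16. Gene names came from the platform annotation (21640 probe sets with 1 symbol, 1321 with several, 11799 with none). The number of arrays limits the precision.

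R 4.3.3 and limma 3.58.1 (lmFit; eBayes with trend) gave 1 model of all 6 groups (8 residual degrees of freedom, a median of 12.1 in the moderated test), after a check on simulated data, with Benjamini-Hochberg adjustment over all genes. Promoter windows came from RefSeq and motifs were searched in Python 3.11.15. The channel genes and the lists were chosen with earlier results of these data known. From each list the text names genes past the threshold, or else the gene with the largest mean difference over the 5 proton days and the gene with the smallest F-test p. Alternatives (28 settings, of which 15 leave out 1 array) covered scaling, filter, controls, variance model, the replicate number and a marker covariate. Deviations of same-numbered samples showed no common direction (31 pairs, r from -0.722 to 0.457, median 0.001, 9 over 0.1). The numbers were not taken to pair samples. The pairs are not independent, so this check cannot exclude pairing.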

Additional observations from a re-analysis of the deposited data

How the results depend on the processing

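With 2 or 3 arrays a group and 3 sham arrays, 0 of the 6 channel genes passed the threshold in any comparison under any of the 28 settings, except that 1 (Scn4b) did in late minus early with the marker score as covariate. Scn4b kept its sign in late minus early under every setting, at 0.311 to 0.430 with 1 array left out and 0.281 to 0.434 otherwise (adjusted p 0.0319 to 0.484). The replicate block left Scn4b late minus early at 0.31 (adjusted p = 0.172). Over the 5 proton days, leaving out 1 array gave -0.209 to -0.0357 for Hcn2, 0.0138 to 0.123 for Gja1 and 0.0183 to 0.144 for Gjc1, and 0.294 to 0.592 for Scn3b, which was 0.111 with the covariate. Differences near 0 changed sign. Over the 5 proton days Hcn4 was -0.043 under quantile normalization and -0.025 with equal array medians, and Gja5 was -0.035 and -0.025 under the same scalings, -0.000517 with 15 separate arrays, -0.016 with the replicate block and -0.12 with the covariate. Hcn4 at day 3 was -0.015 against the sham of days 1 and 3 matched by time. Late minus early, Gja5 was 0.0080 with the replicate block and Gjc1 was -0.035 with equal array medians. With 1 array left out, Hcn4 ran from -0.0514 to 0.166 at day 3, from -0.113 to 0.0754 over the 5 days and from -0.0959 to 0.0389 in late minus early. In the same 3 comparisons Gja5 ran from -0.0636 to 0.310, from -0.138 to 0.109 and from -0.218 to 0.120, and Gjc1 in late minus early from -0.00858 to 0.119. Of the 23 differences by day that the text does not print, 20 changed sign under 1 setting or more, with a lowest adjusted p of 0.337. The causes were not tested. With the stricter filter Hcn2, Hcn4 and Gja5 were not tested. Equal array medians moved the median of all genes by -0.105 at day 26 and by -0.0925 in late minus early.

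Counts of all genes past the threshold depended on the setting: from 0 to 3 at day 1 (0 as reported), 0 to 100 at day 3 (1), 0 to 47 at day 5 (6), 0 to 2 at day 12 (0), 0 to 309 at day 26 (5), 0 to 24 for the mean of the 5 days (3), 0 to 357 for late minus early (1), 0 to 162 for the F-test against sham (3) and 0 to 67 among proton days (0).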
